A study of Mus musculus with 18 samples.

Results

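The 9 genes described here mark or build the trophectoderm, the outer epithelium of the blastocyst that gives rise to the placenta. They are Cdx2, Eomes, Gata3, Elf5, Tfap2a, Tfap2c, Tead4, Krt8 and Krt18, chosen by name from the 49939 genes of the reference. Each was read through the H3K27ac and H3K4me3 peaks that overlapped its RefSeq gene body (mm10) extended by 10 kb on each side, called its window below. The 12 peak lists came from mouse embryonic stem cells on a C57BL/6 background of 3 genotypes, labelled Mettl3_Control, Mettl3_KO1 and Mettl3_KO2 (Control, KO1 and KO2 below), with 2 libraries per genotype and mark. Mettl3 is the catalytic part of the complex that places methyl groups on adenosines of RNA. All groups grew in serum with LIF, CHIR99021 (an inhibitor of GSK3) and PD0325901 (an inhibitor of MEK), a medium that holds stem cells in the naive state. The labels name KO1 and KO2 without saying how Mettl3 was disrupted or whether each is a single clone. They also do not say whether replicates were separate cultures. The p-values therefore reflect library-to-library spread that may be technical.

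In the early embryo, Tead4 with its coactivator Yap1 switches on Cdx2 and Gata3 in outer cells, where Hippo signalling is low. Cdx2, Eomes, Elf5, Tfap2c and Tfap2a then hold the trophoblast programme, and Krt8 and Krt18 pair as the first keratins of the new epithelium. Embryonic stem cells come from the inner cells and keep this programme largely off. H3K27ac is an acetyl mark of active promoters and enhancers, and H3K4me3 is a methyl mark centred on promoters that also occurs, with a repressive mark, at silent developmental genes.

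The libraries differed in how much of the genome their peaks covered. H3K27ac peaks covered 14.4 and 14.6 Mb in Control, 19.6 and 17.5 Mb in KO1, and 37.0 and 35.5 Mb in KO2. H3K4me3 peaks covered 58.2 and 56.3 Mb in Control, 46.6 and 45.2 Mb in KO1, and 50.04 and 41.7 Mb in KO2. The mean fold enrichment of a peak over background, as the authors' peak caller gave it, lay between 6.27 and 7.05 for H3K27ac and between 6.97 and 8.81 for H3K4me3. The read depth behind the lists is unknown. All 8 stem cell markers (Pou5f1, Nanog, Sox2, Klf4, Esrrb, Zfp42, Tfcp2l1 and Tdgf1) had peaks of both marks in every library, with a summed H3K27ac length of 66.4 to 74.0 kb in Control and KO1 and of 131 kb in both KO2 libraries. Markers of other cells also had more H3K27ac in KO2. The 7 primitive endoderm markers summed to 0.164 and 0 kb in Control, 0.416 and 0.624 kb in KO1, and 0.999 and 0.881 kb in KO2, with Foxa2, Gata6, Pdgfra, Sox17 and Sox7 at 0 in all 6 libraries. The 8 fibroblast markers summed to 1.62 and 2.46 kb in Control, 3.48 and 2.53 kb in KO1, and 5.71 and 5.62 kb in KO2, with Col1a2, Lum, Postn, Thy1 and Twist2 at 0 in all 6. Their part in the results on the members was not tested. Peaks in the window of Mettl3 itself do not read how it was disrupted. H3K4me3 there covered 4962 and 5485 bp in Control, 2934 and 3003 bp in KO1, and 3780 and 2739 bp in KO2. H3K27ac there covered 748 and 888 bp in Control, 1033 and 793 bp in KO1, and 1648 and 1768 bp in KO2.

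The upstream sequences of 4 members with a listed start are shown. Of the 7 members with one, Eomes alone had H3K27ac within 2 kb of the upstream start, in both KO2 libraries and 1 KO1 library. Gata3, Cdx2 and Krt18 had H3K4me3 and no H3K27ac there, as did Tfap2a and Krt8, whose sequences are not shown. Tfap2c and Tead4 had no listed start, so their promoters were not read. Each is the 250 bases before the gene start in the RefSeq promoter table (GRCm38.p6, the assembly of mm10), read 5′ to 3′ along the gene, and capitals mark motif matches on either strand.
Eomes (chr9:118477939-118478188, plus strand): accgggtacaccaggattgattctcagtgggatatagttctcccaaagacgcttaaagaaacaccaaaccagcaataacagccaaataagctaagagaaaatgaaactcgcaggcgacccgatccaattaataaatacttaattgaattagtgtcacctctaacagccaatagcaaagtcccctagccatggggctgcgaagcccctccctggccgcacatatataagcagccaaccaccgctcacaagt
Gata3 (chr2:9878601-9878850, minus strand): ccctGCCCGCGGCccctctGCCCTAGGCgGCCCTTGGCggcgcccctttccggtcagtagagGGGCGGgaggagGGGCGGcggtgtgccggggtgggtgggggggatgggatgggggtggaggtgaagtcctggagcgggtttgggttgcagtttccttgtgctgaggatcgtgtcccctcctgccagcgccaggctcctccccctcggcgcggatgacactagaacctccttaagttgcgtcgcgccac
Cdx2 (chr5:147307250-147307499, minus strand): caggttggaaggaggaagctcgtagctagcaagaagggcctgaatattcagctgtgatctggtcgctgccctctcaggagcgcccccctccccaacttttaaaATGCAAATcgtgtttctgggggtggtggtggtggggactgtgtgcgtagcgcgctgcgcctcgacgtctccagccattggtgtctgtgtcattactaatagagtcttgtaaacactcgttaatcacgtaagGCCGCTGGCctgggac
Krt18 (chr15:102027966-102028215, plus strand): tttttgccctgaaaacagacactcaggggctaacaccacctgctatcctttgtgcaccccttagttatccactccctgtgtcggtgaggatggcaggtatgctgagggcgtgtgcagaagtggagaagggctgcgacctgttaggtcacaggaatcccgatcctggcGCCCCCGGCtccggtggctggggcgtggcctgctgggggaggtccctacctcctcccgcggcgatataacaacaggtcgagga

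The motifs searched were GCCNNNGGC for AP-2, GGAATG for TEAD, AGATAA for the GATA family, GGTGTGA for T-box factors, ATGCAAAT for the octamer, GGGCGG for Sp/KLF and TATAAA for the TATA box. AP-2 factors are the proteins of Tfap2a and Tfap2c. The Gata3 sequence held 3 AP-2 and 2 Sp/KLF matches, Cdx2 held 1 octamer and 1 AP-2 match, Krt18 held 1 AP-2 match, and Eomes held none of the 7 motifs in these letters. Over all 32851 promoter entries of the table, counted over 300 bases that include the first 50 after the start, 16.6% held the AP-2 motif, 35.7% the Sp/KLF motif and 1.74% the octamer. The promoter table held entries for 7 members, with 2 starts each for Elf5 and Tfap2a. The 9 entries had a median GC content of 58.0%, against 52.7% over the table.

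H3K27ac was found at 5 of the 9 genes: Tfap2c, Tfap2a, Eomes, Gata3 and Tead4. At each of these 5 the covered length was higher in both KO2 libraries than in every Control and KO1 library. The share of all genes with this order was not counted. By the limma test described below, 87.3% of all genes tested were called higher in KO2 than in Control. No H3K27ac peak overlapped the windows of Cdx2, Elf5, Krt8 or Krt18 in any of the 6 libraries. Summed over the 9 windows, H3K27ac covered 7.55 and 8.70 kb in Control, 9.68 and 7.51 kb in KO1, and 22.6 and 22.8 kb in KO2.

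Lengths were compared as log2(bp covered + 500) with limma over the 3 genotypes, and p-values were Benjamini-Hochberg adjusted over all genes tested, here 18937. A gene needed a mean of at least 200 bp over the 6 libraries. The pseudocount of 500 bp understates changes of short lengths. For the mean of KO1 and KO2 against Control, 5 of the 5 members tested were called higher and 0 lower, at an adjusted p under 0.05. Differences and calls given below for or in both lines refer to this mean. Of all genes tested 71.1% were called higher and 0.354% lower, so the members' share does not set them apart. The median log2 difference was 0.83 over the 5 members and 0.64 over all genes. The Control libraries of Eomes alone averaged 104 bp, under the minimum, so that Eomes entered the test through its knockout libraries and its call partly follows from the filter. Quantile normalization of the libraries brought the median of all genes to -0.04 and the calls over all genes from 13456 higher and 67 lower to 1765 higher and 1708 lower; 1 of the 5 members, Tfap2c, then stayed higher. The total length per library moved with these results, and with an equal number of peaks taken from each library Tfap2c was again the member called, with 1 of 5. Leaving out 1 library left 2 or 3 of the 5 calls, whichever of the 6 libraries it was.

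**Figure D1:**
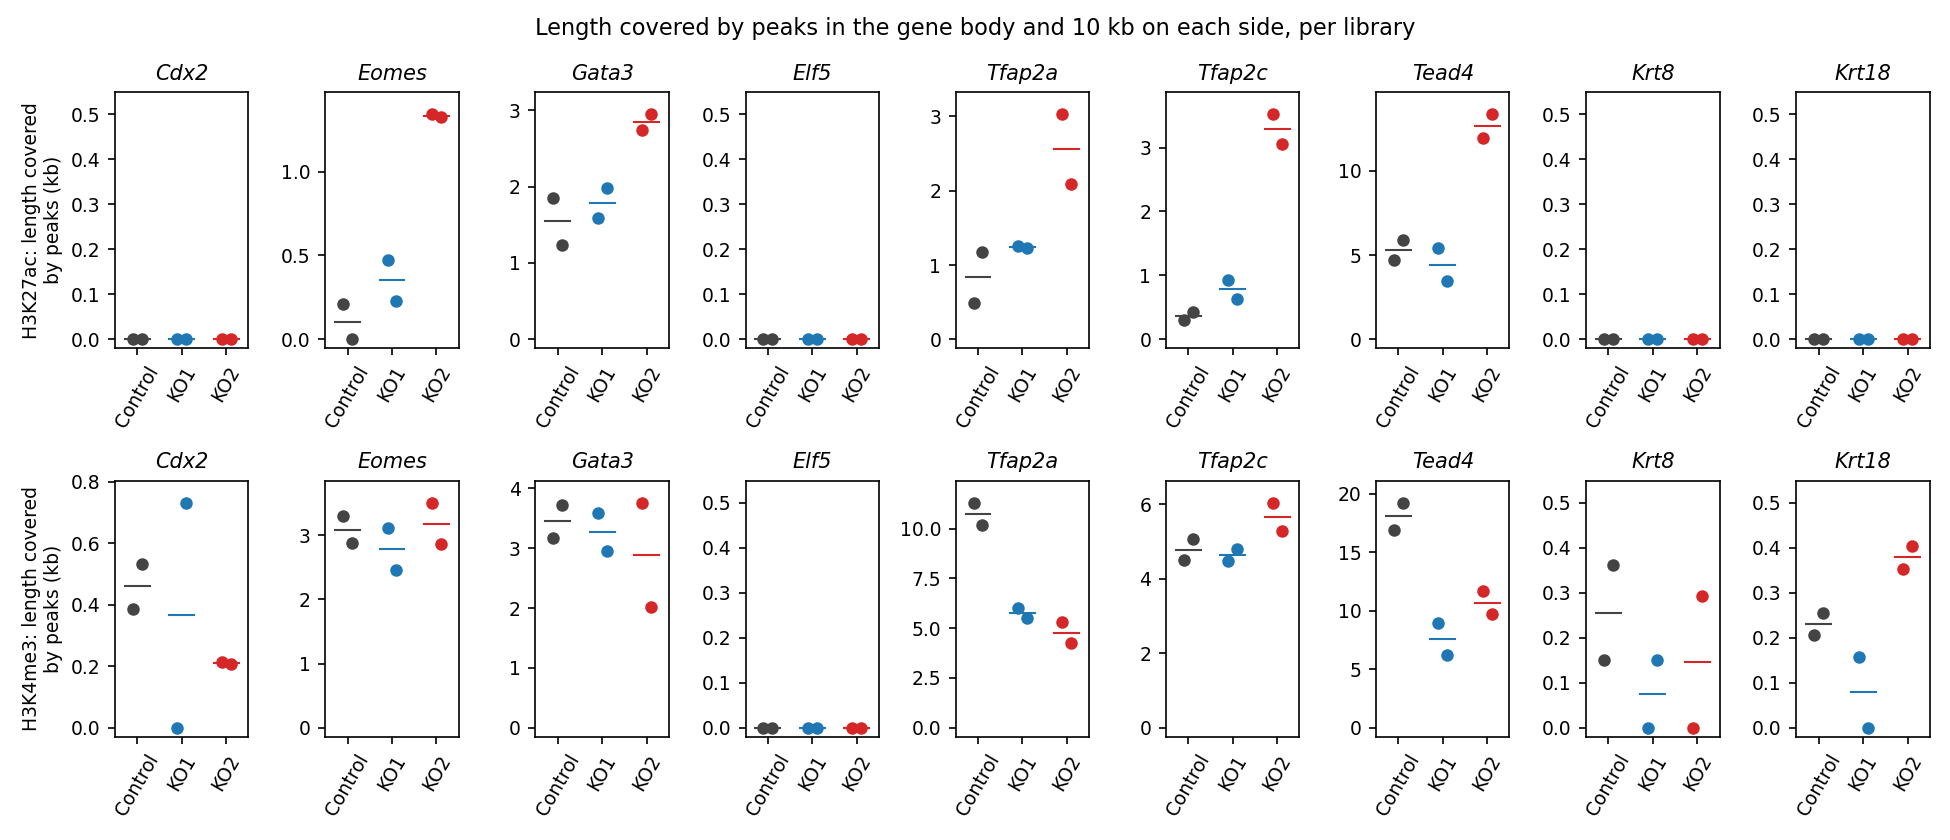
Length covered by peaks (kb, linear axis from 0, scaled per panel) in each of the 9 gene windows, for H3K27ac (top) and H3K4me3 (bottom). Each point is 1 library and each short line the mean of the 2 libraries of a genotype; the KO2 points stand above the others for H3K27ac at 5 genes, and the Control points stand above the others for H3K4me3 at Tfap2a and Tead4.

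Tfap2c, an AP-2 factor of early trophoblast and germ cells, had the largest H3K27ac difference. Its window (mm10 chromosome 2, 172535678 to 172568622) held 305 and 425 bp of H3K27ac in Control, 935 and 625 bp in KO1, and 3518 and 3052 bp in KO2. The groups did not overlap: both KO1 libraries lay above both Control libraries, and KO2 lay above all. The mean was 365 bp ± 84.9 (SD, n = 2) in Control and 3285 bp ± 330 (SD, n = 2) in KO2. The log2 difference for both lines was 1.34 ± 0.16 (SE; limma adjusted p = 0.000944), at the 93.1 percentile of all genes. It was 0.56 in KO1 (adjusted p = 0.0974) and 2.13 in KO2 (adjusted p = 0.000139). Inside the gene body, 4 regions carried peaks in both KO2 libraries and in neither Control library. They lay at 172545700 to 172546496, 172546668 to 172547227, 172549584 to 172550198 and 172550707 to 172551396, all within H3K4me3 regions that every library had. A further region beyond the far end of the gene (172567425 to 172569325, cut by the window edge in the sums above) was present in all 6 libraries and measured 540 and 425 bp in Control, 715 and 202 bp in KO1, and 1780 and 1560 bp in KO2.

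Tfap2a, the related AP-2 factor that also acts in ectoderm and neural crest, held 488 and 1177 bp of H3K27ac in Control, 1252 and 1225 bp in KO1, and 3027 and 2091 bp in KO2 (window chromosome 13, 40703802 to 40748238). Both KO2 libraries were highest, and KO1 lay only just above the higher Control library. The log2 difference for both lines was 0.83 ± 0.24 (SE; limma adjusted p = 0.0174), and 1.23 in KO2 alone (adjusted p = 0.00444) against 0.43 in KO1 (adjusted p = 0.343). The call for both lines was lost without Control replicate 1, either KO1 library or either KO2 library (adjusted p of 0.0536 to 0.110), with a difference of 0.45 without Control replicate 1, and the call in KO2 without KO2 replicate 1 (0.0767). Of its 10 H3K27ac regions, 9 were centred 10.4 to 19.4 kb downstream of the nearer listed start. The region at 40717094 to 40717931 had no peak in Control and had peaks in both libraries of both lines: 340 and 262 bp in KO1, and 838 and 536 bp in KO2. It was the only region of the 50 in these windows gained in both lines. The non-coding gene Gm26688 starts nearest to 30 of the 33 Tfap2a H3K27ac peaks, so these peaks cannot be assigned to Tfap2a itself.

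Eomes, the T-box factor of trophoblast and early mesoderm, held 208 and 0 bp in Control, 474 and 231 bp in KO1, and 1341 and 1324 bp in KO2 (window chromosome 9, 118468186 to 118496132). KO2 stood far above the rest, and both KO1 libraries lay above both Control libraries. The log2 difference was 1.06 ± 0.20 (SE; limma adjusted p = 0.00408) for both lines, 0.50 in KO1 (adjusted p = 0.208) and 1.62 in KO2 (adjusted p = 0.000719). A region just after its start (118478764 to 118479202) had peaks in both KO2 libraries, 439 and 395 bp, in 1 KO1 library, 324 bp, and in neither Control library. The other main region, at 118488559 to 118489337, lies 10.8 kb past the start. The starts of the non-coding genes Gm33408 and Gm33460 lie nearer to the Eomes H3K27ac peaks than the listed Eomes start does.

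Tead4, the DNA-binding partner of Yap1 at the top of this programme, had the longest H3K27ac coverage. Its window (chromosome 6, 128217143 to 128310813) held 4697 and 5867 bp in Control, 5419 and 3450 bp in KO1, and 11969 and 13345 bp in KO2. Control and KO1 overlapped, and KO2 was more than either. The log2 difference for both lines was 0.47 ± 0.17 (SE; limma adjusted p = 0.0419), below the median of all genes, and it turned to -0.13 under quantile normalization. In KO2 it was 1.19 (adjusted p = 0.00128) and in KO1 -0.25 (adjusted p = 0.448), the latter at the 6.17 percentile of all genes. The difference between KO2 and KO1 was 1.44 ± 0.20 (SE; limma adjusted p = 0.00109). The call for both lines was lost without any library but KO1 replicate 2 (adjusted p of 0.0568 to 0.244), while those of KO2 against Control and KO2 against KO1 were kept without each library. The longest region, 128278852 to 128282020, had peaks in all 6 libraries, covering 2266 and 2629 bp in Control, 2778 and 1836 bp in KO1, and 3169 and 3067 bp in KO2.

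Gata3, a zinc-finger factor that acts beside Cdx2 downstream of Tead4, had the smallest difference of the 5, within the error of that of Tead4. Its window (chromosome 2, 9847078 to 9897953) held 1852 and 1235 bp in Control, 1595 and 1982 bp in KO1, and 2744 and 2944 bp in KO2. Control and KO1 overlapped, and KO2 lay above both. The log2 difference for both lines was 0.45 ± 0.16 (SE; limma adjusted p = 0.0371), below the median of all genes, and it turned to -0.22 under quantile normalization. In KO2 it was 0.73 (adjusted p = 0.00782; -0.36 under quantile normalization). The call for both lines was lost without Control replicate 2, KO1 replicate 2 or either KO2 library (adjusted p of 0.0946 to 0.242), with a difference of 0.23 without Control replicate 2, and the call in KO2 without either KO2 library (0.0604 and 0.0805). All 9 Gata3 H3K27ac regions were centred 16.1 to 25.1 kb downstream of the listed start, around the lower-coordinate end of the gene, and none lay at the start.

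By line, 5 of 5 tested members were called higher in KO2, where 87.3% of all genes were. Eomes met the length minimum through its knockout libraries, so that its call in KO2 also partly follows from the filter. In KO1, 0 of 5 were called by limma, with 1 at an unadjusted p under 0.05 (Tfap2c), where 11.3% of all genes were called higher. That share, 2136 genes, fell whichever library was left out, which leaves 1 library in a group. Without either KO2 library the KO1 differences of the members stayed the same, and the spread shared by the genotypes was estimated anew. The median KO1 difference over all genes was 0.18 without KO1 replicate 1 and 0.27 without KO1 replicate 2, beside 0.23 with all libraries. The test of KO2 against KO1 called 5 of 5 higher in KO2, beside 72.7% of all genes. The plot of differences by line places Tfap2c just above the range that spans the 5th to 95th percentile of all genes in KO2, and the other 4 members within it.

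**Figure D2:**
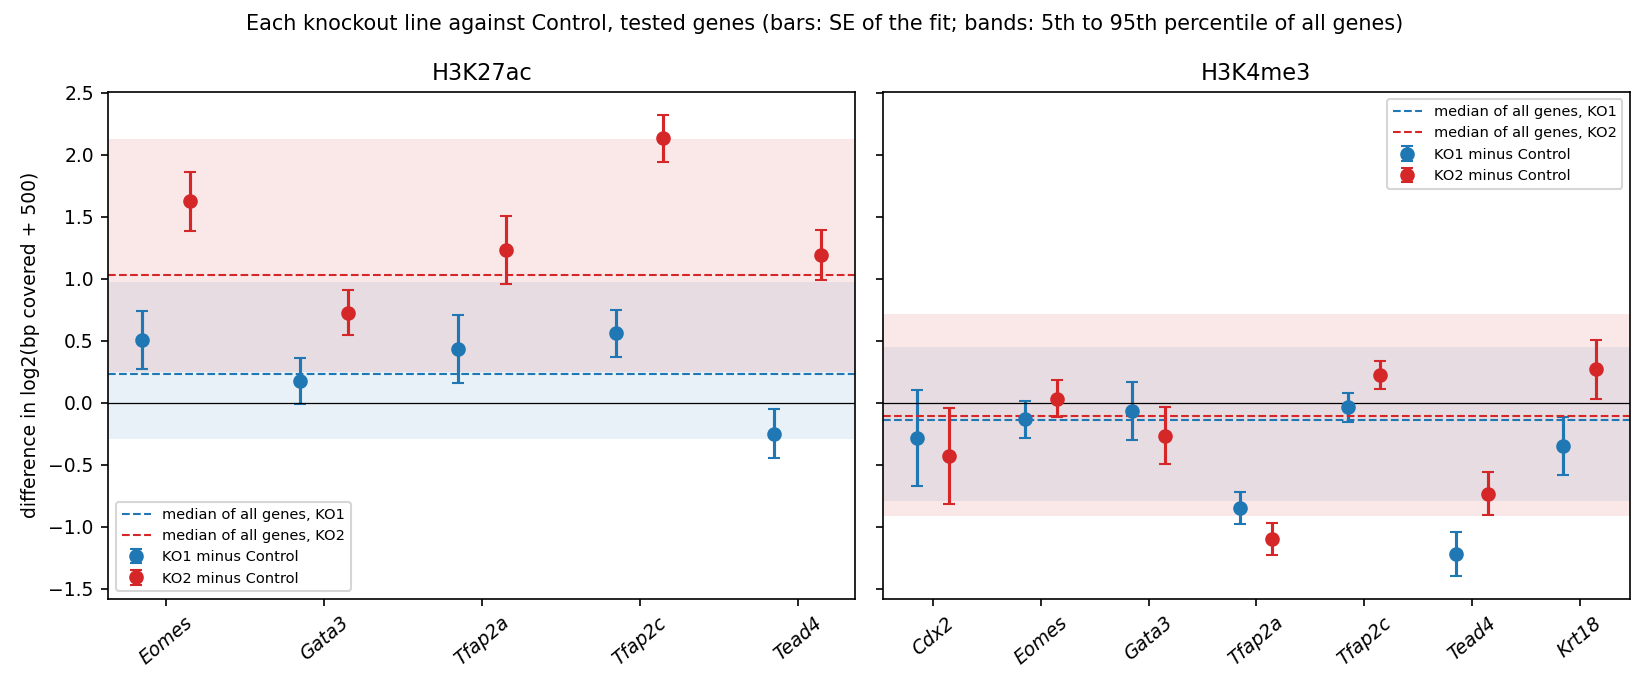
Difference of each knockout line from Control in log2(bp covered + 500) for the members that entered the test (points, with the SE of the fit), for H3K27ac (left) and H3K4me3 (right). Dashed lines are the medians and bands the 5th to 95th percentiles of all genes tested; KO2 points lie above KO1 points at all 5 H3K27ac genes, and Tfap2a lies below both bands for H3K4me3.

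H3K4me3 gave a different picture. Peaks were present at 8 of the 9 genes, and Elf5, an Ets factor of the trophoblast, had no peak of either mark in any library. Of 7 members tested, 2 were called lower in the mean of both lines, Tfap2a and Tead4, and 0 higher (0 also at an unadjusted p under 0.05). Of all 24171 genes tested with limma, 19.7% were called lower and 4.59% higher. Quantile normalization moved these calls from 1109 higher and 4772 lower to 2737 higher and 2363 lower, and under it Tfap2a and Tead4 were still called lower while Tfap2c was called higher. The median log2 difference was -0.17 over the 7 members and -0.12 over all genes.

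Tfap2a H3K4me3 covered 11285 and 10193 bp in Control, 6011 and 5491 bp in KO1, and 5298 and 4240 bp in KO2. Every knockout library lay below both Control libraries, and below the Control mean of 10739 bp ± 772 (SD, n = 2). The mean fold of its peaks lay between 6.16 and 6.91 in all 6 libraries. The log2 difference for both lines was -0.97 ± 0.11 (SE; limma adjusted p = 0.00151), at the 2.80 percentile of all genes. It was -0.85 in KO1 (adjusted p = 0.00769) and -1.10 in KO2 (adjusted p = 0.00153). The call in KO1 was lost without either Control or either KO1 library (adjusted p of 0.0504 to 0.0794). Both lines had short remnants where Control had long peaks at 40718477 to 40720002, with 1526 and 949 bp in Control, 224 and 456 bp in KO1, and 0 and 150 bp in KO2. By contrast, the region 40730489 to 40732317, 2.39 kb past the nearer start, measured 1636 and 1338 bp in Control, 1539 and 1354 bp in KO1, and 1297 and 1103 bp in KO2.

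Tead4 H3K4me3 covered 16928 and 19213 bp in Control, 8982 and 6198 bp in KO1, and 11678 and 9717 bp in KO2. The knockout libraries again all lay below both Control libraries, with KO1 lowest. The log2 difference for both lines was -0.98 ± 0.15 (SE; limma adjusted p = 0.00445), at the 2.76 percentile of all genes. It was -1.22 in KO1 (adjusted p = 0.00659) and -0.73 in KO2 (adjusted p = 0.0206). The mean fold of its peaks was 5.55 to 5.98 in Control, KO1 and 1 KO2 library, and 8.13 in the other KO2 library. Without Control replicate 2 the adjusted p for both lines was 0.0596. The call in KO1 was lost without Control replicate 1, Control replicate 2 or KO1 replicate 2 (adjusted p of 0.0509 to 0.0641), and the call in KO2 without Control replicate 1, Control replicate 2 or KO2 replicate 2 (0.0792 to 0.132).

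Between Control and the knockout lines, the intermediate stretches of Tead4 differed most in length. The region 128274762 to 128276818 measured 1692 and 1556 bp in Control, 159 and 0 bp in KO1, and 336 and 191 bp in KO2. The region 128285326 to 128287158 measured 1539 and 1646 bp in Control, 185 and 437 bp in KO1, and 575 and 720 bp in KO2. The region 128293522 to 128299118 measured 4335 and 5129 bp in Control, 2202 and 1062 bp in KO1, and 1940 and 1826 bp in KO2. In each of these 3 the knockout libraries lay below both Control libraries, which partly follows from naming the stretches that differed most. The core region 128278796 to 128281980 differed less, with 3054 and 3122 bp in Control, 2853 and 2250 bp in KO1, and 2733 and 2750 bp in KO2. The region over the higher-coordinate end of the gene, 128299230 to 128301234, measured 1761 and 2002 bp in Control, 1426 and 1598 bp in KO1, and 1968 and 1921 bp in KO2, so that KO2 lay within the Control range. In the KO2 libraries H3K27ac was longer within each of these 3 stretches. At 128275541 to 128276646 H3K27ac measured 0 and 240 bp in Control, 0 and 150 bp in KO1, and 859 and 926 bp in KO2. At 128285465 to 128286748 it measured 208 and 355 bp in Control, 150 and 150 bp in KO1, and 698 and 1143 bp in KO2. At 128295511 to 128297449 it measured 704 and 1056 bp in Control, 424 and 157 bp in KO1, and 1309 and 1939 bp in KO2. In all 3 both KO2 libraries lay above every other library. That order was not particular to these stretches. It also held at the core (128278852 to 128282020), at 128282147 to 128283706 and over the higher-coordinate end of the gene. At that end (128299701 to 128301225) H3K27ac measured 268 and 442 bp in Control, 771 and 484 bp in KO1, and 1491 and 1455 bp in KO2. The map of Tead4 peaks shows both marks on 1 scale.

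**Figure D3:**
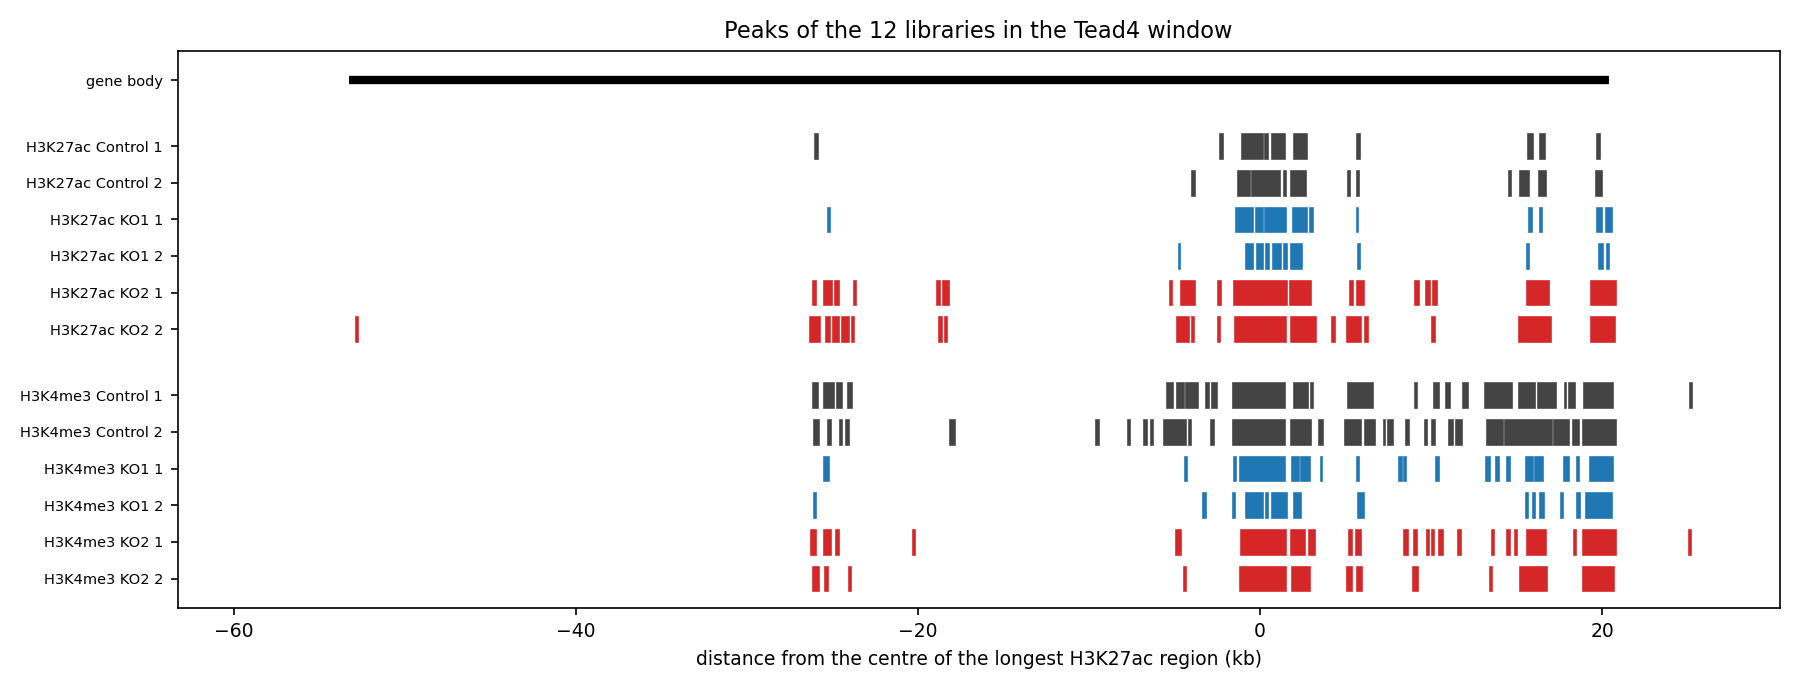
Peaks of the 12 libraries (bars, 1 row per library, coloured by genotype) in the Tead4 window, as distance in kb from the centre of the longest H3K27ac region, with the gene body as a black bar. The Control H3K4me3 rows show more and longer peaks on either side of the central block than the KO1 and KO2 rows, and the KO2 H3K27ac rows show more peaks than the Control and KO1 rows.

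Tfap2c showed no H3K4me3 difference that passed the test. Its window held 4512 and 5052 bp in Control, 4486 and 4794 bp in KO1, and 6030 and 5290 bp in KO2, with both KO2 libraries highest. For both lines the log2 difference was 0.09 ± 0.10 (SE; limma adjusted p = 0.553). Eomes held 3300 and 2871 bp in Control, 3105 and 2451 bp in KO1, and 3499 and 2853 bp in KO2, groups that overlapped (log2 difference -0.05 ± 0.13 SE, adjusted p = 0.819). Gata3 held 3177 and 3713 bp in Control, 3592 and 2949 bp in KO1, and 3754 and 2019 bp in KO2, which also overlapped (-0.17 ± 0.20 SE, adjusted p = 0.598).

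**Figure D4:**
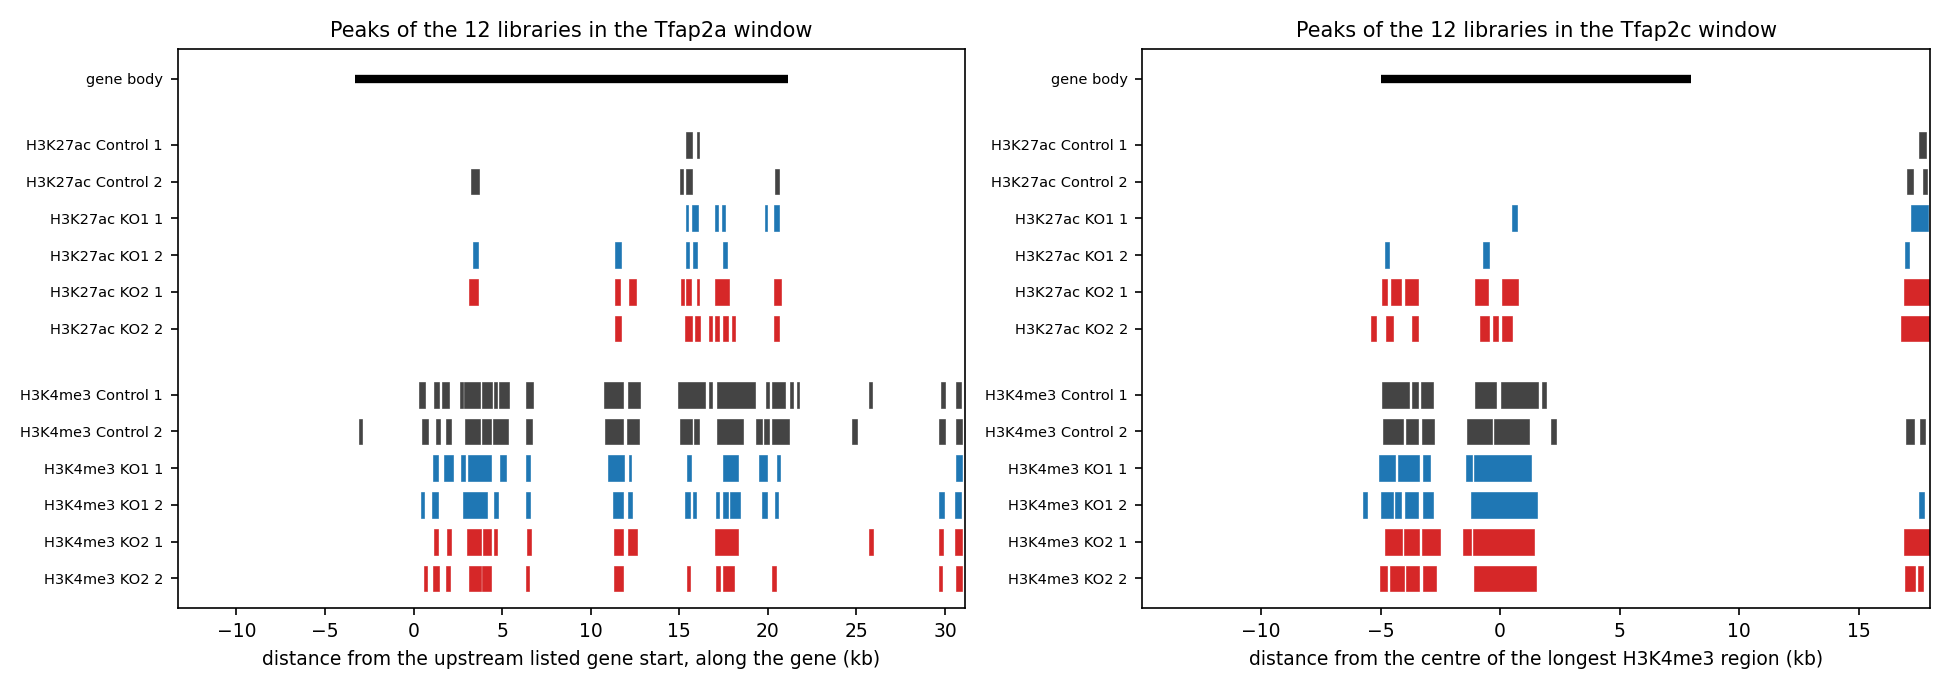
Peaks of the 12 libraries (bars, 1 row per library, coloured by genotype) in the windows of Tfap2a (left, distance in kb from the upstream listed start) and Tfap2c (right, distance in kb from the centre of the longest H3K4me3 region), with gene bodies as black bars. At Tfap2a the Control H3K4me3 rows are longest, and at Tfap2c the H3K27ac peaks inside the gene body are in knockout rows, mostly KO2.

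Cdx2, the homeobox factor that defines the trophectoderm, had a single H3K4me3 region near its start (147306319 to 147307049 on chromosome 5) and no H3K27ac. That region measured 387 and 534 bp in Control, 0 and 731 bp in KO1, and 214 and 206 bp in KO2. The KO2 libraries were lower than Control, and the KO1 libraries spanned the full range (log2 difference for both lines -0.36 ± 0.34 SE, limma adjusted p = 0.484). Krt18 had 206 and 255 bp of H3K4me3 in Control, 158 and 0 bp in KO1, and 354 and 405 bp in KO2. KO1 lay below Control and KO2 above it, so that the mean of both lines (-0.04 ± 0.20 SE) does not describe either. The log2 difference was -0.35 in KO1 (limma adjusted p = 0.369), 0.27 in KO2 (adjusted p = 0.453) and 0.62 for KO2 minus KO1 (adjusted p = 0.179), none of which passed the test. Krt8 was below the length minimum, with 150 and 361 bp in Control, 0 and 150 bp in KO1, and 0 and 293 bp in KO2.

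By line, 2 of 7 tested members were called lower in KO1, beside 12.1% of all genes, and 2 of 7 in KO2, beside 19.6%. The members called were Tfap2a and Tead4 in each. Between KO2 and KO1, limma called 0 of 7 for H3K4me3 in either direction, with 2 higher at an unadjusted p under 0.05, and 5.95% of all genes were called.

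Around the listed starts, coverage was taken as the percent of the 2 kb on each side that peaks covered, where the mean reached 5%. Eomes was the single member tested for H3K27ac, and the Control libraries stood at 0% and 0%, those of KO1 at 8.10% and 0%, and those of KO2 at 15.9% and 13.6%. Both KO2 libraries exceeded all others, and the difference for both lines was 9.40 percentage points (limma adjusted p = 0.0131), against a median of 10.6 over 8901 genes, 68.0% of which were called higher. It passed the minimum only through the knockout libraries, so its call partly follows from the filter, and the call was lost without Control replicate 1 (0.0864) or 2 (0.0811). For KO2 against KO1 it was also called, beside 77.0% of all genes. For H3K4me3, 5 members were tested and limma called 0, with 1 lower at an unadjusted p under 0.05, beside 4.87% of 12714 genes in either direction. At the Eomes start, Control libraries had 51.7% and 42.7% coverage, KO1 libraries 40.8% and 31.2%, and KO2 libraries 45.0% and 38.4%. Both KO1 libraries lay below both Control libraries there (-11.2 percentage points, limma adjusted p = 0.288), and KO2 overlapped both groups. At the Gata3 start, where the groups overlapped, Control libraries had 29.1% and 28.9%, KO1 libraries 37.7% and 25.3%, and KO2 libraries 29.0% and 24.7%. At the upstream Tfap2a start, Control libraries had 24.4% and 18.3%, KO1 libraries 13.7% and 12.3%, and KO2 libraries 7.85% and 16.4%, where every knockout library was below both Control libraries.

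Peaks of the 6 libraries of a mark were merged into regions, 50 for H3K27ac and 75 for H3K4me3 in the 9 windows. Of the H3K27ac regions, 12 had peaks in both KO2 libraries and in neither Control library, against 24.2% of 77090 regions genome-wide, a share close to that of the members. Tfap2c and Tead4 held 4 each, Tfap2a 2, and Eomes and Gata3 1 each. Gained regions numbered 1 in KO1 (4.64% genome-wide) and 1 in both lines (3.55% genome-wide), and 0 of the 50 were lost in KO1, in KO2 or in both lines, beside 0.821%, 0.505% and 0.206% genome-wide. Of the H3K27ac regions 42 of 50 met an H3K4me3 region, and the genome-wide share was not counted. Of the H3K4me3 regions, 5 were lost in KO1 (7.05% genome-wide), 3 in KO2 (8.40%) and 2 in both lines (5.01%). Tead4 held all 5 lost in KO1 and 2 of the 3 lost in KO2, and Tfap2a held the other. No H3K4me3 region was gained in KO2 (4.15% genome-wide).

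A wider list of 40 trophoblast, epithelial and Hippo pathway genes showed how these members sit among related genes. For H3K27ac, 29 were tested. In the mean of both lines 24 were called higher and 0 lower (0 also at an unadjusted p under 0.05), beside 71.1% and 0.354% of all genes. Among the 24, Fgfr2, Gata2 and Gcm1 had 0 bp in both Control libraries. They met the length minimum through the knockout libraries, so their calls partly follow from the filter. The median over the 29 was 0.77 against 0.64 over all genes. The 3 largest were Atp1b1, a sodium pump subunit that drives blastocoel fluid, at 1.97, Tead2, a relative of Tead4, at 1.78, and Amotl1, a Hippo scaffold, at 1.75 (limma adjusted p of 0.000244 to 0.00240). For H3K4me3, 38 were tested, 3 were called higher and 11 lower, beside 4.59% and 19.7% of all genes, with a median of -0.20 against -0.12. Those called higher were Gcm1, Esx1, a placental homeobox factor, at 1.00 ± 0.13 (SE), and Amotl1 at 0.56 ± 0.13 (SE). Gcm1, a factor of placental syncytium, had 0 bp in both Control libraries, 513 and 412 bp in KO1, and 1091 and 1094 bp in KO2, so that it met the length minimum through the knockout libraries and its call partly follows from the filter. The 3 largest falls were in Yap1 at -0.81, Id2, an inhibitor of helix-loop-helix factors, at -0.60, and Nf2, the Hippo activator, at -0.58 (limma adjusted p of 0.00371 to 0.0343). Yap1 H3K4me3 covered 20614 and 20302 bp in Control, 14820 and 12003 bp in KO1, and 11272 and 8503 bp in KO2. Like that of its partner Tead4, it was lower in every knockout library than in Control. Yap1 H3K27ac went the other way (0.96, limma adjusted p = 0.00183), with 1914 and 2410 bp in Control and 8735 and 6861 bp in KO2. Among the other Tead genes, Tead1 was called lower for H3K4me3 (-0.56), and Tead2 (0.07) and Tead3 (-0.06) were not called.

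For each member with both marks, the gene most like it across the 12 libraries was found by the Euclidean distance of log2(bp + 500). These were Apeh for Eomes (0.54), Zwint for Gata3 (0.61), Gm39326 for Tfap2a (0.62), Gm15417 for Tfap2c (0.61) and Rell1 for Tead4 (0.83). Rell1 held 4766 and 5223 bp of H3K27ac in Control, 4790 and 4179 bp in KO1, and 15334 and 11765 bp in KO2, with H3K4me3 of 14315 and 14401 bp in Control, 6490 and 6886 bp in KO1, and 11109 and 9964 bp in KO2. Parts of the protein-coding genes Urad, Cat and Krt78 reached into the windows of Cdx2, Elf5 and Krt8, and no protein-coding gene other than the members had a listed start in the windows.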

How the data were processed

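The analysis used 12 peak lists, 1 per immunoprecipitated library and called on each library separately by the authors; the 6 input samples were not used here. The submitters' processing notes list, without roles, CASAVA, Trimmomatic 0.38, Bowtie 1.2.2 and MACS2, and mm10 as build. The deposited lists give for every peak the authors' fold, a ratio to background, and their −log10 p and −log10 q, of which the lowest −log10 q was 2.00. Read depth is unknown. Per the labels' protocols spike-in chromatin was added, and its use in peak calling is not stated.

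Peak lengths were summed over each gene body of the GRCm38.p6 RefSeq table with 10 kb on each side, and over 2 kb on each side of the most upstream listed start. limma 3.58.1 (lmFit, eBayes with trend, R 4.3.3) was fitted over the 3 genotypes of a mark for all genes on chromosomes 1 to 19, X and Y, with a mean of at least 200 bp (5% for starts) and log2(bp + 500) (percent for starts). Scripts were tested on simulated data. All 9 members are named, with up to 3 rises and 3 falls of the wider list and the nearest gene of each member. Members and lists were chosen with earlier results of these data known. Alternatives changed the scaling, peaks, margin, pseudocount, filter, measure, design and libraries.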

Additional observations from a re-analysis of the deposited data

Results flagged for a closer look

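H3K27ac differed between the 2 lines at 5 members, by the limma test of KO2 minus KO1, which also called 72.7% of all genes higher in KO2. The source of this difference was not tested. In log2(bp + 500) of the gene windows, KO2 exceeded KO1 by 1.57 at Tfap2c (adjusted p = 0.000722), by 1.44 at Tead4 (adjusted p = 0.00109) and by 1.12 at Eomes (adjusted p = 0.00537). The difference was 0.80 at Tfap2a (adjusted p = 0.0326) and 0.55 at Gata3 (adjusted p = 0.0297). Both KO2 libraries lay above both KO1 libraries at each of the 5 genes, an order whose share over all genes was not counted. Around the Eomes start the difference was 10.7 percentage points (adjusted p = 0.0110), against a median of 14.8 over all genes, 77.0% of which were called. The start met the 5% minimum through the KO2 libraries, so this call partly follows from the filter, and without KO1 replicate 2 it was lost (6.66 points, adjusted p = 0.0573). Over all genes the median of KO2 minus KO1 was 0.76, so Gata3 lay below that median and Tfap2a near it. The H3K27ac lists of KO2 covered 37.0 and 35.5 Mb against 19.6 and 17.5 Mb in KO1. With an equal number of peaks per library, 2 of the 5 differences were called.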

How the results depend on the processing

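The 34 values given for single genes were recomputed 653 times over the alternatives: 540 kept their direction and side of the threshold, 87 kept the direction and lost the call, 4 gained a call and 22 changed sign. The cause of these changes was not tested. Tfap2c in KO2 (H3K27ac) kept its call in all 21 alternatives run.

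For H3K27ac, 5 members were called higher in the mean of both lines. This became 1 under quantile normalization, 1 with an equal number of peaks, 3 with no margin, 3 with no filter and 1 by number of peaks. In KO1 the 0 members became 2 with a margin of 50 kb (Tfap2c and Eomes). In KO2 the 5 became 1 under quantile normalization, 2 with equal peaks, 3 by number of peaks and 3 to 5 without single libraries. For KO2 against KO1 the 5 became 2 under quantile normalization, 2 with equal peaks, 1 by number of peaks and 2 to 5 without single libraries. The Eomes start (1 called) gave 0 under quantile normalization, 0 with equal peaks, where it left the test, and 0 to 1 without single libraries.

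H3K4me3, 2 members called lower in both lines: 0 by number of peaks and 1 to 2 without single libraries. In KO1 the 2 became 0 by number of peaks and 0 to 2 without single libraries. In KO2 they became 1 under quantile normalization, 0 by number of peaks and 1 to 3 without single libraries. The 0 called higher became 1 (Tfap2c) under quantile normalization and 1 with a margin of 50 kb.

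Over all genes, H3K27ac calls of 13456 higher and 67 lower became 1765 and 1708 under quantile normalization, 6726 and 180 with equal peaks, 6580 and 32 with no margin, 23284 and 176 with 50 kb, 8213 and 37 with a stricter length filter, and 4774 and 131 by number of peaks; single libraries left out gave 8829 to 13148 higher and 43 to 94 lower. H3K4me3 calls of 1109 higher and 4772 lower became 2737 and 2363 under quantile normalization, 523 and 2938 with no margin, 1958 and 9355 with 50 kb, and 601 and 888 by number of peaks; single libraries left out gave 412 to 1155 higher and 1116 to 6332 lower. By line, single libraries left out took the H3K27ac genes higher in KO1 from 2136 to 0 to 1099, and H3K4me3 genes lower in KO1 from 2915 to 278 to 4332 and in KO2 from 4732 to 1665 to 5668; for KO2 against KO1 limma called 0 H3K4me3 genes without KO1 replicate 2 (3714 at an unadjusted p under 0.05).

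Signs changed for H3K27ac under quantile normalization at Gata3 (-0.22 in both lines, -0.0696 in KO1, -0.36 in KO2, -0.29 for KO2 minus KO1), Tead4 (-0.13 in both lines), Tfap2a (-0.018 for KO2 minus KO1) and the Eomes start (-1.06 points for KO2 minus KO1). In KO1, Gata3 was -0.0140 with equal peaks and -0.045 to 0.39 without single libraries, and Tead4 was 0.063 by number of peaks and -0.54 to 0.041 without single libraries. For H3K4me3, none of the sign changes touched a call: Gata3 was 0.030 under quantile normalization, 0.0024 with no margin, 0.073 by number of peaks and -0.36 to 0.022 without single libraries. Eomes was 0.15 under quantile normalization and -0.14 to 0.036 without single libraries, Krt18 was -0.14 to 0.059 without single libraries, and Tfap2c was -0.14 by number of peaks.

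The replicate numbers are shared between genotypes, and the labels do not say that they pair the libraries. Deviations of same-numbered libraries correlated by -0.02 to 0.02 across genes. The replicate number was also fitted as a block. For H3K27ac, 5 members then stayed higher in the mean of both lines, 5 in KO2 and 5 for KO2 minus KO1. For H3K4me3, 2 stayed lower in the mean of both lines, 2 in KO1 and 2 in KO2. No call of a member changed. In that mean, 13383 genes were higher and 70 lower for H3K27ac, and 1187 higher and 5076 lower for H3K4me3. Depth is unknown, so absence of a peak means that none passed the authors' threshold.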
